A study of Mus musculus with 6 samples.

Results

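A set of 9 genes of muscle protein breakdown and autophagy was examined in mouse heart, with its values given library by library. They were Fbxo32 and Trim63, which encode ubiquitin ligases of muscle atrophy, and Map1lc3a, Map1lc3b, Gabarapl1, Sqstm1, Bnip3, Becn1 and Pink1, which act in autophagy or in the clearance of mitochondria. The genes were chosen by name from the deposited table of FPKM (fragments counted relative to transcript length and to the mapped total). All 9 of the 9 names were found among the 30914 genes of the table, and all 9 were among the 13089 genes that reached 0.5 FPKM in 3 or more of the 6 libraries and were tested.

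The libraries came from the hearts of wild-type male C57BL/6J mice that were 8 weeks old at the start. The Ang II group (3 libraries) received angiotensin II at 1 μg/kg/min through osmotic pumps for 4 weeks, which induces pathological cardiac hypertrophy. The Ang II + Tec group (3 libraries) received the same infusion and, over its last 2 weeks, tectochrysin (Tec), a plant flavonoid, at 5 mg/kg. All 6 libraries thus come from infused mice, and hearts without Ang II were not analysed here, so the comparison addresses what Tec added to the infusion. Polyadenylated RNA of bulk heart tissue was sequenced, so that fewer cells of a type and less RNA per cell cannot be told apart.

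Muscle cells degrade proteins by the ubiquitin-proteasome system and by autophagy, which share part of their control. In the ubiquitin-proteasome system, a ligase such as atrogin-1 (the product of Fbxo32) or MuRF1 (the product of Trim63) attaches ubiquitin to proteins, MuRF1 largely to proteins of the sarcomere, and the proteasome degrades them. In autophagy, the Beclin-1 lipid kinase complex starts a double membrane, proteins of the ATG8 family (LC3 and GABARAP) are attached to it, receptors such as p62 (Sqstm1) tie ubiquitinated cargo to them, and the closed vesicle fuses with a lysosome. Damaged mitochondria enter this route through the kinase PINK1 or through receptors of their outer membrane such as BNIP3. FoxO transcription factors, which AKT keeps out of the nucleus, are known to activate several of these genes in muscle, Fbxo32, Trim63 and Bnip3 among them.

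Because of this shared control, the promoters of the members were searched for a FoxO motif (TTGTTTAC), an E-box (CACGTG) and a TATA box (TATAAA), on both strands. Fbxo32, Map1lc3a and Becn1 had no window and were not searched. The windows were those of RefSeq (GRCm38.p6), from 250 bases before to 50 bases after the start of the gene, and 6 of the 9 members had one (Trim63, Pink1, Gabarapl1, Bnip3, Map1lc3b and Sqstm1). Positions are relative to this RefSeq start. Except for Trim63, it lies inside the gene coordinates given below, so the last bases printed for Bnip3 and Pink1 fall within those coordinates. The FoxO motif was found in Trim63 alone among these 6, with its first base at position -195 relative to the start (the start itself being 0), and in 403 of all 32851 windows (1.23%). Trim63 also held a TATA box at position -31, and Sqstm1 held one at position -1, where the letters lie on the start itself. The TATA letters occurred in 13.6% of all windows. The E-box was found in Bnip3 at position -108 and in 7.15% of all windows. The 3 motifs do not overlap one another in these windows. The 250 bases before the start are printed for Trim63, the ligase with the FoxO letters, for Bnip3, with the E-box, and for Pink1, the member with the largest log2 fold change, which held none of the 3 motifs. They are written 5′ to 3′ on the strand of the gene, with the motifs in capitals. The window of Trim63 is chr4:134314870-134315119 on the plus strand, that of Bnip3 chr7:138909507-138909756 on the minus strand and that of Pink1 chr4:138326297-138326546 on the minus strand.
Trim63: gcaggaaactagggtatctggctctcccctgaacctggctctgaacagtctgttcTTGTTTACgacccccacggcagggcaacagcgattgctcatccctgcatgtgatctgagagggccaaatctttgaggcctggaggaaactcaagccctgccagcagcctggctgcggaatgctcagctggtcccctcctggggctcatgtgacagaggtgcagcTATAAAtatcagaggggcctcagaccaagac
Bnip3: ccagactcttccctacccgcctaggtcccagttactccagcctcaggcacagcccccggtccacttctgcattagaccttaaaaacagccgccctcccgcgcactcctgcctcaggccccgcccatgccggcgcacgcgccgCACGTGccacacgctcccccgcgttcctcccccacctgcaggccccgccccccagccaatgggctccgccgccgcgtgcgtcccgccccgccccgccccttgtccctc
Pink1: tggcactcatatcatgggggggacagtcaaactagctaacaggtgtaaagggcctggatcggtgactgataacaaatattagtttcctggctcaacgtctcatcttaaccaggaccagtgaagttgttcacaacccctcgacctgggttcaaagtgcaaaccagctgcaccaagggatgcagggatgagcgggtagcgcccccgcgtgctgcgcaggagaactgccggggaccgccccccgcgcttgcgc
These matches describe letters and not bound sites, since no binding was measured.

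The composition of the tissue differed between libraries, and these values stand beside every result on the members. The 9 ventricular cardiomyocyte markers were present in all libraries, with summed FPKM of 10319 to 12649 in the Ang II group and 11174 to 12414 in the Ang II + Tec group. Myl7, the atrial myosin light chain, was at 418.96, 332.29 and 0 FPKM under Ang II alone and at 0, 1039.78 and 1.58 FPKM with Tec added, so that 2 Ang II libraries and 1 Ang II + Tec library held atrial RNA at 100 FPKM or more. The 4 atrial markers summed to 256.2 to 10253 and 127.5 to 5032 FPKM in the respective groups, with Myl7 and Sln at 0 in at least one library. Most of each sum came from Nppa, at 5568.3, 9455.92 and 255.58 FPKM against 906.1, 3488.63 and 124.91 FPKM. Nppa encodes ANP, which the paper uses as a measure of hypertrophy, so these sums cannot be read as atrial tissue alone. The 7 fibroblast markers summed to 705.3, 928.8 and 162.8 FPKM under Ang II alone and to 136.1, 220.9 and 150.2 FPKM with Tec added, with none at 0. The 5 macrophage markers summed to 62.2 to 114.9 FPKM against 39.05 to 44.9 FPKM, which do not overlap. Of 6 skeletal muscle markers 5 were in the table and 4 were tested, with Myh1 at 0 in at least one library. Their sums were 301.9 to 559.9 FPKM against 455.4 to 708.6 FPKM, mostly from Ckm, and Atp2a1 and Mylpf passed the test, Atp2a1 from at most 0.1 FPKM in the Ang II group to at least 6.3 FPKM with Tec added. Tnnt3 of this list had a log2 fold change below 0, with 6.91, 42.41 and 0.3 FPKM against 1.41, 1.04 and 1.31 FPKM. Summed levels of the remaining lists overlapped between the groups (endothelial 71.2 to 77.9 against 64.7 to 72.8, smooth muscle 92.1 to 316.4 against 49.9 to 231.4, adipocyte 0.49 to 9.31 against 0.15 to 44.6 and erythroid 247.8 to 1018 against 147.4 to 526.4 FPKM). Mitochondrially encoded transcripts took up 41.3%, 40.1% and 48.9% of all FPKM under Ang II alone and 51.3%, 49.6% and 52.5% with Tec added. FPKM keep no read totals, and the spacing of the lowest values gave relative depths of 0.926 to 1.16.

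No member passed the test between the groups. Differences were fitted with limma on log2(FPKM + 1) over all tested genes, and a gene was called at an adjusted p-value (Benjamini-Hochberg) under 0.05. By this rule 0 of the 9 members and 24 of all 13089 tested genes (0.183%) were called, and the adjusted p-values of the members ran from 0.226 to 0.595. At an unadjusted p-value under 0.05 there were 2 members with higher values in the Ang II + Tec group, Fbxo32 and Pink1, against 2.09% of all tested genes, and 0 members with lower values, against 16.5%. The same 2 members had no overlap between the groups with every Ang II + Tec library above every Ang II library, which held for 2.9% of tested genes. The opposite separation was seen in 0 members and in 18.9% of tested genes. The log2 fold change was above 0 for 5 members and below 0 for 4, with a median of 0.16, whereas the median of all tested genes was -0.17 and 20.0% of them lay above 0. Since the members were chosen and are not a sample of the genes, these shares are descriptions.

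The levels of the 9 genes, which FPKM allow to be compared per transcript length, spanned a wide range. Map1lc3a was the most abundant, and 1.02% of tested genes had a higher mean. It was followed by Pink1, Sqstm1, Bnip3, Gabarapl1, Trim63, Map1lc3b, Fbxo32 and Becn1, and 28.0% of tested genes had a higher mean than Becn1. Sqstm1 and Bnip3 overlapped in their ranges, but Sqstm1 was the higher in 6 of 6 libraries. Gabarapl1 and Trim63 overlapped as well, with Gabarapl1 the higher in 4 of 6 libraries, and so did Fbxo32 and Becn1, with Fbxo32 the higher in 5 of 6. The other neighbours in this order had separate ranges. The 2 ligases thus lay apart, with Trim63 above and Fbxo32 below Map1lc3b.

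**Figure D1:**
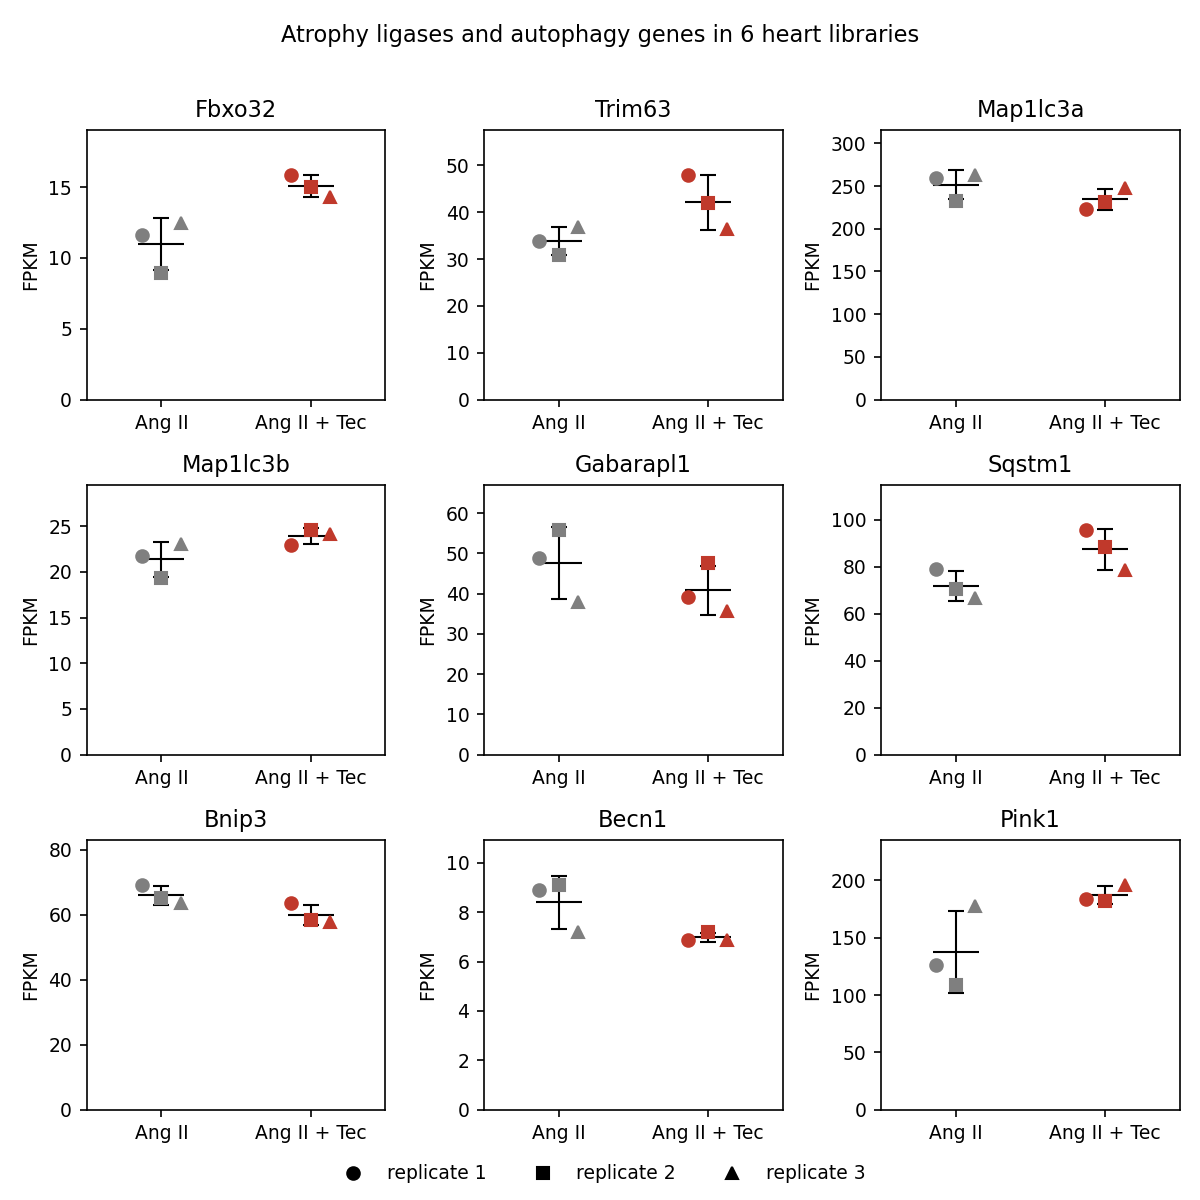
Deposited FPKM (vertical axes, each from 0) of the 9 genes in the 3 Ang II libraries (grey) and the 3 Ang II + Tec libraries (red), with 1 symbol per replicate and the mean ± SD of each group in black. For Fbxo32 (at most 12.45 against at least 14.3 FPKM) and Pink1 (at most 177.8 against at least 181.79 FPKM) the groups do not overlap, and for the other 7 genes they do.

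Of the atrophy ligases, Fbxo32 (ENSMUSG00000022358, chromosome 15 from 58175879 to 58214932, minus strand, GRCm38) had FPKM of 11.61, 8.95 and 12.45 under Ang II alone and 15.89, 15.02 and 14.3 with Tec added. All 3 Ang II + Tec libraries lay above all Ang II libraries. The means were 11.0 ± 1.83 and 15.1 ± 0.796 FPKM (SD, n = 3 each), which are 1.37-fold apart, and the log2 fold change was 0.43 (standard error 0.14, 95% interval 0.10 to 0.76, limma p-value 0.0171, adjusted 0.226). Of all tested genes, 1.76% had a larger log2 fold change. The gene overlaps Gm15943, an antisense transcript on the other strand, which was listed at 0.25, 0.29 and 0.41 FPKM under Ang II alone and at 0.6, 0.69 and 0.58 FPKM with Tec added. The sources used here do not state whether strand was used in counting, and reads of the shared stretch cannot be told apart.

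Trim63 (ENSMUSG00000028834, chromosome 4 from 134315120 to 134329629, plus strand), whose upstream sequence holds the FoxO letters, had FPKM of 33.78, 30.86 and 36.73 under Ang II alone and 48.02, 41.88 and 36.34 with Tec added. The lowest Ang II + Tec library lay just under the highest Ang II library, so the groups overlapped. The log2 fold change was 0.30 (standard error 0.14, 95% interval -0.02 to 0.62, adjusted p-value 0.282), from 33.8 ± 2.94 to 42.1 ± 5.84 FPKM (SD, n = 3). Within a library, the FPKM of Fbxo32 were 0.344, 0.290 and 0.339 times those of Trim63 under Ang II alone and 0.331, 0.359 and 0.394 times with Tec added, an overlap with an exact two-sided permutation p-value of 0.3 (0.6 adjusted over the 4 ratios examined). The ratio does not depend on the scaling of a library.

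Among 18 ubiquitin ligases of muscle, these 2 included, none passed the test, and 2 had an unadjusted p-value under 0.05 with higher and 2 with lower values in the Ang II + Tec group. The median log2 fold change of the list was -0.10 as deposited. With every library rescaled so that its median ratio to the others was equal (the median of ratios), it was 0.09, with 12 of 18 genes above 0. Of all tested genes, 51.8% lay above 0 on this scale and 20.0% as deposited, shares that stand beside such counts in every list below. Trim54 (MuRF3), a relative of MuRF1 that binds microtubules and the sarcomere, had the largest positive value of the list, with 59.33, 46.49 and 64.77 FPKM against 86.63, 97.73 and 78.1 FPKM (log2 fold change 0.62, standard error 0.16, adjusted p-value 0.201). Fbxl22, an F-box ligase subunit of the cardiac sarcomere, had the largest negative one, with 24.82, 22.56 and 18.24 FPKM against 13.27, 14.51 and 10.98 FPKM (-0.71, standard error 0.16, adjusted p-value 0.185). The groups did not overlap for either gene. After rescaling, these 2 values became 0.86 and -0.48. The skeletal muscle genes Atp2a1 and Mylpf were also higher in the Ang II + Tec libraries, while Tnnt3 of the same list had a log2 fold change of -1.77. The groups overlapped for Tnnt3 and Ckm, and the part of these genes in the values of muscle ligases was not tested.

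For the start of the autophagosome, Becn1 (ENSMUSG00000035086, chromosome 11 from 101285952 to 101302286, minus strand), the Beclin-1 subunit of the class III phosphatidylinositol 3-kinase, had FPKM of 8.9, 9.12 and 7.18 under Ang II alone and 6.87, 7.2 and 6.89 with Tec added. Ang II replicates 1 and 2 stood above the other 4 libraries, which lay close together, and the groups overlapped through Ang II replicate 3. Its log2 fold change was -0.23 as deposited (standard error 0.12, 95% interval -0.51 to 0.06, adjusted p-value 0.327) and -0.01 on the median-of-ratios scale. Leaving out Ang II replicate 3 gave -0.33, with an adjusted p-value of 0.0487, in a setting where 28.8% of all tested genes passed. Leaving out any other single library gave -0.25 to -0.17, with adjusted p-values of 0.302 to 0.705. The fibroblast markers showed the same 2 libraries apart, at 705.3 and 928.8 FPKM against at most 220.9 FPKM in the other 4, and their part in the value of Becn1 was not tested. Of the 13 genes of the ULK and phosphatidylinositol 3-kinase complexes, none passed the test, and a single one reached an unadjusted p-value under 0.05. The median log2 fold change was -0.06 as deposited, and it was 0.13 after rescaling, with 9 of 13 genes above 0. That gene was Nrbf2, a subunit that binds the kinase complex, with 4.82, 6.26 and 5.02 FPKM against 3.94, 4.24 and 4.16 FPKM (-0.31, adjusted p-value 0.256). Uvrag, a partner of Beclin-1, had a log2 fold change of -0.26 (adjusted p-value 0.318).

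The ATG8 proteins coat the growing membrane and bind cargo receptors. Map1lc3a (ENSMUSG00000027602, chromosome 2 from 155276297 to 155278073, plus strand) had FPKM of 259.15, 232.13 and 263.47 under Ang II alone and 223.1, 231.83 and 247.9 with Tec added. Its libraries were interleaved, and the log2 fold change was -0.10 as deposited (standard error 0.11, 95% interval -0.37 to 0.16, adjusted p-value 0.595) and 0.14 on the median-of-ratios scale. Map1lc3b (ENSMUSG00000031812, chromosome 8 from 121590361 to 121598760, plus strand), which encodes the LC3B used as an autophagosome marker, had FPKM of 21.75, 19.29 and 23.06 against 22.95, 24.64 and 24.18. Only Ang II + Tec replicate 1 lay within the Ang II range, and the log2 fold change was 0.16 (standard error 0.11, 95% interval -0.10 to 0.42, adjusted p-value 0.420). The gene overlaps Zcchc14 on the other strand, which was at no more than 5.06 FPKM in any library, while the genes that overlap other members reached at most 0.69 FPKM. Gabarapl1 (ENSMUSG00000030161, chromosome 6 from 129533160 to 129542346, plus strand) had FPKM of 48.79, 55.94 and 38.03 against 39.24, 47.57 and 35.78. Replicate 2 was the highest and replicate 3 the lowest in both groups, and the log2 fold change was -0.21 as deposited (standard error 0.18, 95% interval -0.62 to 0.20, adjusted p-value 0.491) and 0.03 after rescaling. Without Ang II replicate 2 it was -0.08, and without Ang II replicate 3 it was -0.36.

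The ratio of the LC3 genes varied little within a group. In each library, Map1lc3a had 11.9, 12.0 and 11.4 times the FPKM of Map1lc3b in the Ang II group and 9.72, 9.41 and 10.3 times in the Ang II + Tec group. The groups did not overlap, with means of 11.8 ± 0.322 and 9.79 ± 0.426 (SD, n = 3). The difference of the mean log2 ratios was -0.27, and it ran from -0.30 to -0.24 when any single library was left out. The exact two-sided permutation p-value was 0.1, the smallest that 3 libraries against 3 allow, and 0.4 after adjustment over the 4 ratios, so this difference cannot pass the threshold in this design. Of the summed FPKM of the 5 ATG8 genes, Map1lc3b made up 4.44%, 3.85% and 5.13% under Ang II alone and 5.65%, 5.74% and 5.58% with Tec added, without overlap. Map1lc3a is the largest part of this sum, so the share reuses the values of the ratio and is not a separate observation. The shares of Map1lc3a (52.6% ± 6.12 and 55.4% ± 1.63, SD, n = 3), Gabarap (26.9% ± 5.16 and 23.1% ± 0.319), Gabarapl1 (9.86% ± 1.36 and 9.67% ± 1.42) and Gabarapl2 (6.10% ± 0.330 and 6.19% ± 0.351) overlapped. None of the 5 genes passed the test. Gabarap, which the list adds beside the members together with Gabarapl2, had 129.5, 161.97 and 99.2 FPKM against 94.87, 97.53 and 100.39 FPKM (log2 fold change -0.38, adjusted p-value 0.292), and only Ang II replicates 1 and 2 stood apart. The summed FPKM of the family were 480.1 ± 27.0 and 422.8 ± 14.6 (SD, n = 3), without overlap as deposited. Of all tested genes, 18.9% were lower with Tec without overlap as deposited. The log2 fold change was below 0 for 4 of the 5 genes as deposited and above 0 for 4 of the 5 after rescaling. The shares of all tested genes above 0 were 20.0% and 51.8% on the respective scales. Gabarapl1 had 1.57, 1.79 and 1.48 times the FPKM of Gabarapl2 against 1.51, 1.74 and 1.43 times (exact permutation p-value 0.6).

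**Figure D2:**
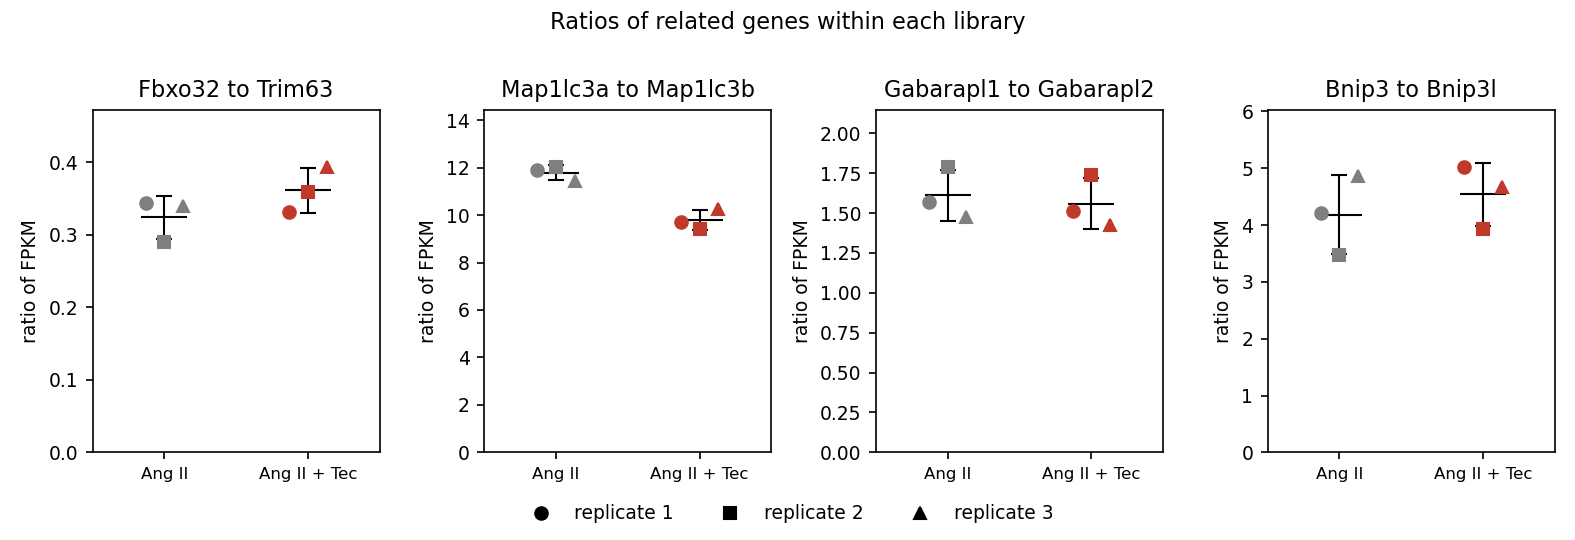
Ratios of the FPKM of related genes within each library (vertical axes, each from 0) for the 3 Ang II (grey) and 3 Ang II + Tec (red) libraries, with the mean ± SD of each group in black. For Map1lc3a to Map1lc3b, the Ang II + Tec libraries lie at 9.41 to 10.3 and the Ang II libraries at 11.4 to 12.0, and the groups overlap in the other 3 panels.

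The proteins that attach the ATG8 family to membranes had their own list of 11 genes, none of which passed the test. The log2 fold change was below 0 for 11 of 11 genes as deposited and for 7 of 11 on the median-of-ratios scale, with medians of -0.26 and -0.05. The shares of all tested genes above 0 were 20.0% and 51.8% on the respective scales. Atg16l2 had 1.58, 1.66 and 1.21 FPKM against 0.67, 1.03 and 1.09 FPKM (-0.37, adjusted p-value 0.238), without overlap. Atg5, whose product forms the conjugation complex with ATG12, had 8.99, 11.12 and 6.3 FPKM against 5.13, 6.79 and 6.39 FPKM (-0.44, adjusted p-value 0.284), with Ang II replicate 3 among the Ang II + Tec libraries. Of the genes that supply lipid to the growing membrane, 9 of 10 were tested and none passed. At an unadjusted p-value under 0.05, 1 had higher and 2 had lower values with Tec added, beside 2.09% and 16.5% of all tested genes. The log2 fold change was above 0 for 2 of the 9 as deposited and for 6 after rescaling, with medians of -0.14 and 0.02. These counts stand beside the same 20.0% and 51.8% of all tested genes. Vmp1, a lipid scramblase of the endoplasmic reticulum, had 18.23, 27.27 and 10.31 FPKM against 10.02, 11.51 and 10.08 FPKM (-0.67, adjusted p-value 0.282), and Wdr45b, which binds phosphoinositide lipids, had 13.58, 14.49 and 10.89 FPKM against 9.25, 9.3 and 10.24 FPKM (-0.39, adjusted p-value 0.229).

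Among the cargo receptors, Sqstm1 (ENSMUSG00000015837, chromosome 11 from 50199366 to 50210827, minus strand), which encodes p62 and is itself degraded by autophagy, had FPKM of 78.93, 70.37 and 66.45 under Ang II alone and 95.79, 88.3 and 78.37 with Tec added. The lowest Ang II + Tec value lay just under the highest Ang II value. The means were 71.9 ± 6.38 and 87.5 ± 8.74 FPKM (SD, n = 3), with a log2 fold change of 0.28 (standard error 0.13, 95% interval -0.02 to 0.57, adjusted p-value 0.282). In the list of 8 receptors none passed the test, 4 had a log2 fold change above 0 as deposited, and 8 had one on the median-of-ratios scale. The shares of all tested genes above 0 were 20.0% and 51.8%. Calcoco1, a receptor for parts of the endoplasmic reticulum, had 10.68, 9.54 and 14.41 FPKM against 13.86, 17.46 and 15.24 FPKM (0.41, standard error 0.17, adjusted p-value 0.260). Its groups overlapped through Ang II replicate 3.

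For mitophagy, Pink1 (ENSMUSG00000028756, chromosome 4 from 138313409 to 138326307, minus strand), the kinase that accumulates on damaged mitochondria and recruits Parkin, had FPKM of 126.19, 109.03 and 177.8 under Ang II alone and 183.8, 181.79 and 196.46 with Tec added. The groups did not overlap, but Ang II replicate 3 lay nearer to the Ang II + Tec libraries than to the other Ang II libraries. The means were 137.7 ± 35.8 and 187.4 ± 7.95 FPKM (SD, n = 3), which are 1.36-fold apart, and the log2 fold change was 0.47 (standard error 0.18, 95% interval 0.04 to 0.90, p-value 0.0362, adjusted 0.249). Of all tested genes, 1.54% had a larger log2 fold change. Leaving out Ang II replicate 3 gave 0.67, with an adjusted p-value of 0.00760, in a setting where 28.8% of all tested genes passed. Leaving out any other single library gave 0.32 to 0.49, with adjusted p-values of 0.276 to 0.652. The share of mitochondrial transcripts put the 6 libraries in the same order as Pink1 did. It was 41.3%, 40.1% and 48.9% under Ang II alone and 51.3%, 49.6% and 52.5% with Tec added. With those transcripts left out and the libraries rescaled to equal sums, the log2 fold change of Pink1 was 0.50 (adjusted p-value 0.284). That setting changes only the library totals, and the part of mitochondrial content in the value of Pink1 was not tested.

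Bnip3 (ENSMUSG00000078566, chromosome 7 from 138890836 to 138909519, minus strand), a receptor of the outer mitochondrial membrane known for its response to hypoxia, had FPKM of 69.28, 65.03 and 63.47 against 63.57, 58.38 and 57.72. The groups met at a single pair of libraries, 63.47 in the Ang II group and 63.57 in the Ang II + Tec group, and the log2 fold change was -0.14 as deposited (standard error 0.10, 95% interval -0.38 to 0.11, adjusted p-value 0.452) and 0.11 after rescaling. Bnip3 had 4.22, 3.48 and 4.86 times the FPKM of its paralogue Bnip3l against 5.03, 3.94 and 4.67 times (exact permutation p-value 0.6). Of the 12 listed genes of mitophagy 11 were in the table and 10 were tested, and none passed. Besides Pink1, 1 had an unadjusted p-value under 0.05. It was Fkbp8, an outer membrane protein that binds LC3A, with 29.79, 28.9 and 21.64 FPKM against 18.46, 22.93 and 19.68 FPKM (-0.37, adjusted p-value 0.266).

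The 12 lists of related genes held 153 tested genes besides the members, and none of them passed the test. Of these 153, 5 had an unadjusted p-value under 0.05 with higher and 14 with lower values in the Ang II + Tec group. Across all tested genes the shares were 2.09% and 16.5%. Among the 153, the log2 fold change was below 0 for 113 and above 0 for 40 as deposited. On the median-of-ratios scale it was below 0 for 45 and above 0 for 108. The shares of all tested genes above 0 were 20.0% and 51.8% on the respective scales. The medians were -0.11 and 0.08 for the 153, beside -0.17 and 0.01 for all tested genes. The split thus differed between the scales, and its cause was not tested. The lowest adjusted p-value among the 153 was that of Akt1, a kinase that inhibits FoxO factors, with 60.12, 56.75 and 52.65 FPKM under Ang II alone and 35.1, 35.36 and 33.74 FPKM with Tec added (log2 fold change -0.68, standard error 0.10, adjusted p-value 0.0917). The groups were far apart relative to their spread, and the value was -0.44 after rescaling. Without Ang II replicate 3, 37 of the 153 genes passed (24.2%), beside 28.8% of all tested genes.

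In the list of 18 upstream genes of mTOR, AMPK and AKT, to which Akt1 belongs, 3 had an unadjusted p-value under 0.05, all with lower values in the Ang II + Tec group, where 16.5% of all tested genes did. The log2 fold change was above 0 for 4 of these 18 genes as deposited and for 12 after rescaling, with medians of -0.11 and 0.11. Mlst8, a subunit of both mTOR complexes, had 3.08, 3.4 and 3.17 FPKM against 1.79, 2.19 and 2.15 FPKM (-0.47, adjusted p-value 0.197). Of the 10 FoxO and TFEB regulators, Klf15, a glucocorticoid-induced factor known to act on Fbxo32 and Trim63 in muscle, had 17.26, 14.94 and 25.37 FPKM against 23.17, 30.05 and 31.38 FPKM (0.55, standard error 0.21, adjusted p-value 0.243), and Tfe3 had a log2 fold change of -0.26 (adjusted p-value 0.353). The median of these 10 was -0.03 as deposited and 0.15 after rescaling, with 8 of 10 above 0 on the latter scale. The 14 genes known to respond to FoxO or glucocorticoids had a median of 0.0035 as deposited and of 0.22 after rescaling. After rescaling 13 of 14 lay above 0, beside 51.8% of all tested genes. As deposited, 1 gene of the list had an unadjusted p-value under 0.05. That gene was Irs2, an adaptor of the insulin receptor, with 1.37, 1.16 and 1.14 FPKM against 2.04, 2.12 and 1.52 FPKM (0.38, adjusted p-value 0.229), and Tsc22d3, a glucocorticoid-induced gene, had a log2 fold change of -0.41 (adjusted p-value 0.373).

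The last lists cover the lysosome and the proteasome, where both routes end. Of 15 genes of autophagosome fusion and the lysosomal membrane, 2 had an unadjusted p-value under 0.05, both with lower values in the Ang II + Tec group, beside the 16.5% of all tested genes. The median was -0.16 as deposited and 0.013 after rescaling, with 11 of 15 above 0 on the latter scale. Vamp8, a SNARE protein of the fusion step, had 16.18, 15.83 and 11.25 FPKM against 9.95, 10.6 and 8.92 FPKM (-0.50, adjusted p-value 0.224), and Lamp2, a protein of the lysosomal membrane, had a log2 fold change of -0.34 (adjusted p-value 0.350). Of 31 proteasome subunits, 2 had an unadjusted p-value under 0.05, both with lower values in the Ang II + Tec group, and the median was -0.19 as deposited and 0.04 after rescaling. Psmd13, of the regulatory particle, had 27.54, 29.25 and 18.07 FPKM against 14.34, 15.54 and 14.55 FPKM (-0.69, adjusted p-value 0.201), and Psma1, of the core particle, had 32.14, 34.87 and 26.04 FPKM against 23.97, 23.74 and 23.69 FPKM (-0.36, adjusted p-value 0.237). For both subunits Ang II replicate 3 was the lowest of its group.

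**Figure D3:**
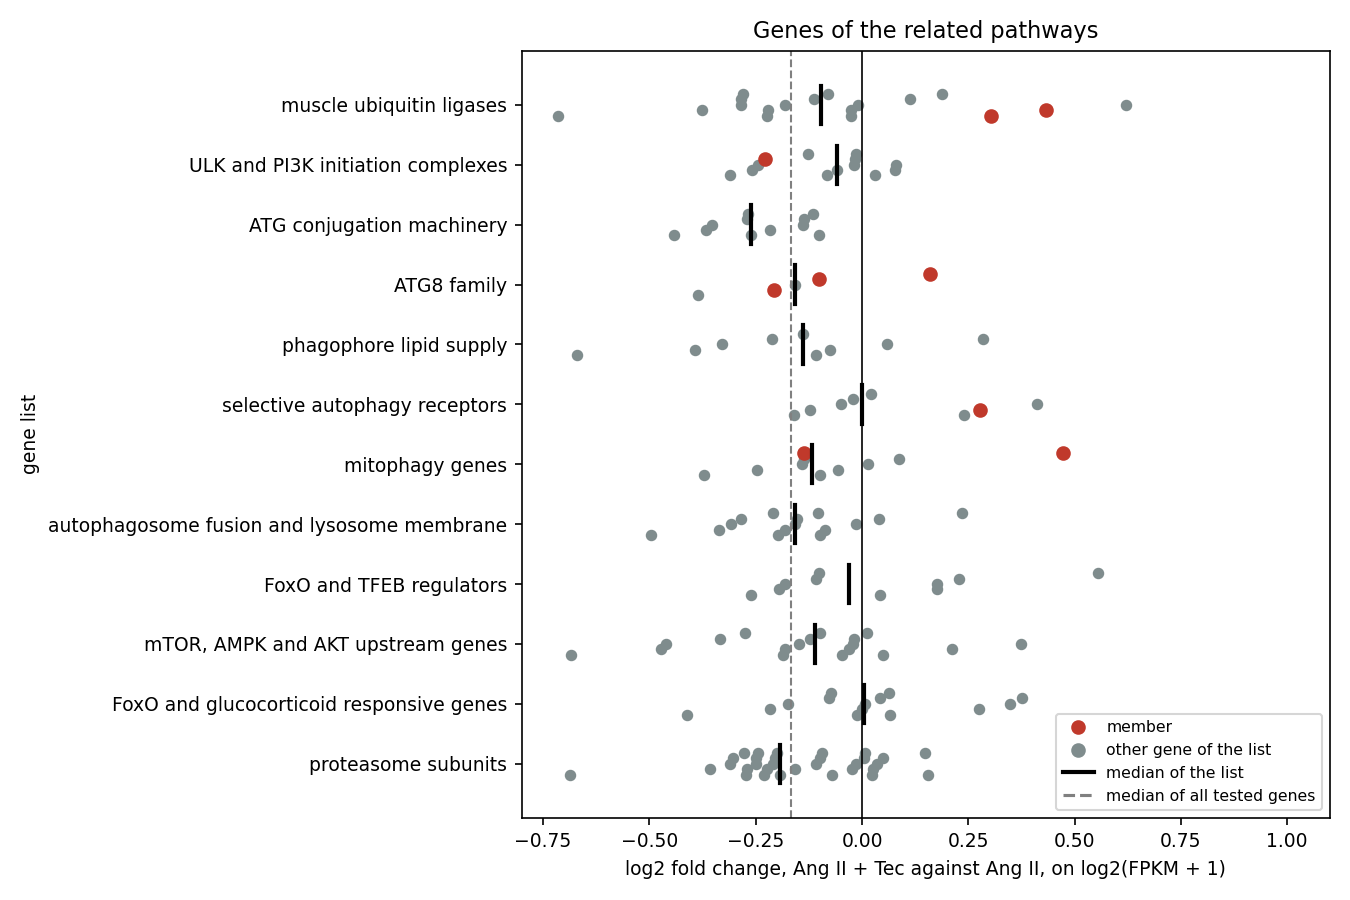
Log2 fold change of Ang II + Tec against Ang II on log2(FPKM + 1), as deposited (horizontal axis), for each tested gene of the 12 related lists, with the members in red, the median of each list as a black bar and the median of all tested genes (-0.17) as a dashed line. Trim54 (0.62), Klf15 (0.55), Pink1 (0.47) and Fbxo32 (0.43) lie among the highest values and Fbxl22 (-0.71), Psmd13 (-0.69) and Akt1 (-0.68) among the lowest. Of the 153 genes other than members 113 lie below 0 here, and 45 do on the median-of-ratios scale.

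Scaling moved all members together. Rescaling by the median of ratios brought the median of the log2 fold changes over the 13089 tested genes from -0.17 to 0.01, and it gave 0.66 for Fbxo32, 0.54 for Trim63, 0.39 for Map1lc3b, 0.52 for Sqstm1, 0.72 for Pink1 and -0.01 for Becn1. On that scale 8 of 9 members lay above 0, beside 51.8% of all tested genes, and the members had a median of 0.39. At an unadjusted p-value under 0.05 there were 5 members with higher values (Fbxo32, Map1lc3b, Pink1, Sqstm1 and Trim63), beside 7.56% of all tested genes, but none passed the test, the lowest adjusted p-value being 0.255. The values of Map1lc3a, Gabarapl1 and Bnip3 crossed from below to above 0 with this common shift, from 95% intervals that spanned 0 as deposited. Fbxo32, Trim63, Map1lc3b, Sqstm1 and Pink1 stayed above 0 under each of the 18 alternative settings tried, and Becn1 stayed below 0 under each. The changes of filter, replicate block and variance trend cannot alter a log2 fold change in this fit, so the sign was fixed in those settings.

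The number of genes called rested on Ang II replicate 3. Without it, 3776 of the tested genes (28.8%) and 3 members passed, the members being Becn1, Fbxo32 (log2 fold change 0.52, adjusted p-value 0.0258) and Pink1. Without Ang II replicate 1 or 2 or any 1 of the Ang II + Tec libraries, 0 members passed and 2 to 7 genes did. In this library Myl7 was at 0 and the fibroblast markers summed to 162.8 FPKM, within the range of the Ang II + Tec libraries. Among the libraries with Myl7 at 100 FPKM or more, Fbxo32 averaged 10.3 FPKM in 2 Ang II libraries and 15.0 FPKM in the single Ang II + Tec library, and among the others it was 12.45 FPKM in the single Ang II library and averaged 15.1 FPKM in 2 Ang II + Tec libraries. Pink1 was at 117.6 against 181.8 FPKM in the former and at 177.8 against 190.1 FPKM in the latter. Sqstm1 was at 74.7 against 88.3 FPKM and at 66.45 against 87.1 FPKM. Gabarapl1 was at 52.4 against 47.6 FPKM and at 38.0 against 37.5 FPKM. With single libraries on one side, these pairs have no error of their own. With Myl7 at 100 FPKM or more as a term in the fit, a setting chosen after seeing the data, the log2 fold change was 0.39 for Fbxo32, 0.36 for Pink1, 0.31 for Sqstm1, 0.27 for Trim63, -0.17 for Becn1 and -0.08 for Gabarapl1, and no member passed.

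**Figure D4:**
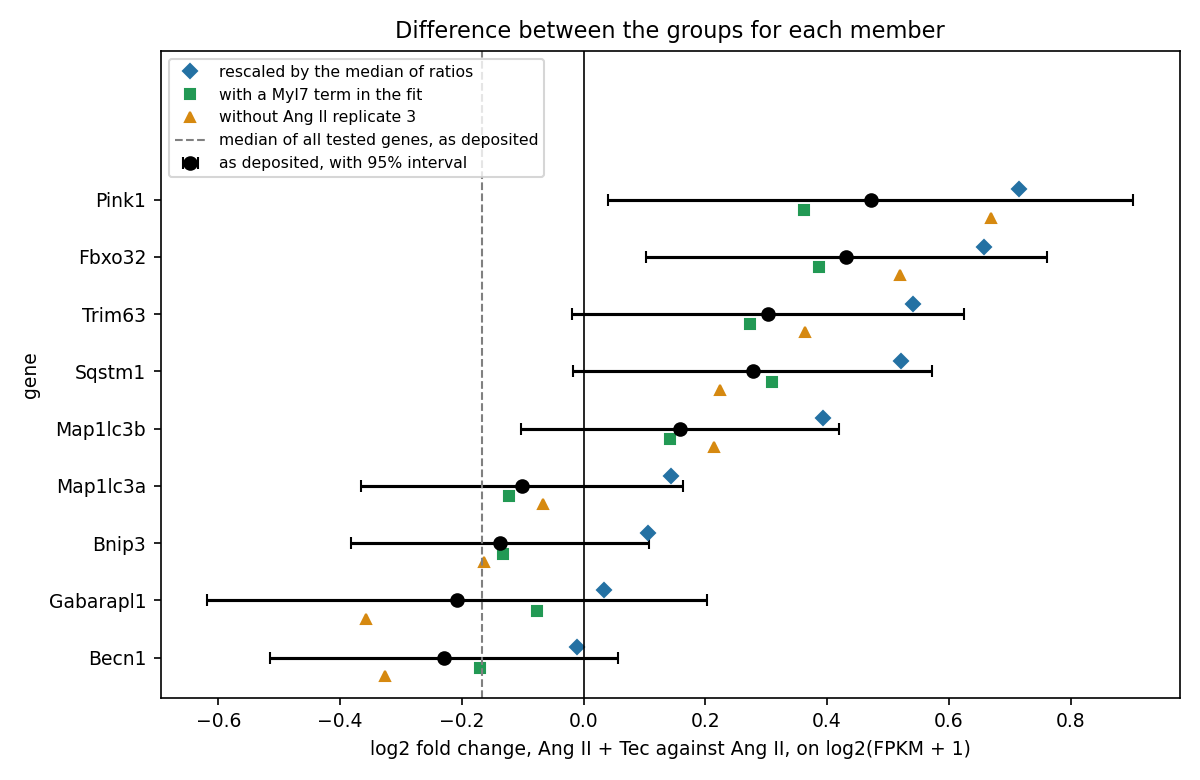
Log2 fold change of each member (horizontal axis, Ang II + Tec against Ang II on log2(FPKM + 1)), as deposited with its 95% interval (black), on the median-of-ratios scale (blue), with a Myl7 term (green) and without Ang II replicate 3 (orange). The intervals of Fbxo32 and Pink1 lie above 0 as deposited, and the values of Map1lc3a, Gabarapl1 and Bnip3 lie below 0 as deposited and above 0 after rescaling.

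The genes whose log2(FPKM + 1) followed each member most closely over the 6 libraries were sought among tested genes with a mean of at least 1 FPKM. With 6 points that share their library, and 11039 genes searched, high coefficients arise readily, and these are descriptions. Fbxo32 was followed by Pygm (muscle glycogen phosphorylase), Eef1a2 (a translation elongation factor of muscle and neurons) and Fech (the last enzyme of heme synthesis), with Pearson coefficients of 0.994, 0.990 and 0.980. Pygm had 117.46, 88.64 and 133.75 FPKM under Ang II alone and 183.96, 159.53 and 159.15 FPKM with Tec added. Trim63 was followed by Cdkl1, Lmod2 (an actin filament protein of the sarcomere) and Myot (a Z-disc protein), at 0.979, 0.978 and 0.976. Pink1 was followed by Etfa, mt-Nd5 and Echdc3, at 0.995, 0.992 and 0.992, where Etfa carries electrons from fatty acid oxidation and mt-Nd5 is a complex I subunit of the mitochondrial genome. Becn1 was followed by Mrc2, Col1a1 and Steap3, each at 0.999, and Col1a1, the collagen gene of the fibroblast list, had 82.67, 100.36 and 7.09 FPKM against 4.2, 8.06 and 3.83 FPKM.

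The other members had Isca1, Ank and Psme1 nearest to Map1lc3a, Idh3g, Adi1 and Retnla nearest to Map1lc3b, Pias2, Uap1 and Arih1 nearest to Gabarapl1, and Bloc1s2-ps, Trim72 and Spag7 nearest to Bnip3, with coefficients between 0.981 and 0.998. Trim72, a membrane repair protein that is also in the list of muscle ligases, had 129.86, 110.82 and 99.74 FPKM against 101.43, 81.34 and 78.99 FPKM. Sqstm1 had lower coefficients, at 0.961 for Psmd4, the ubiquitin receptor of the proteasome, 0.956 for Dab2ip and 0.952 for Epn3. Psmd4 had 23.75, 22.72 and 21.75 FPKM against 26.01, 25.52 and 24.79 FPKM, with a log2 fold change of 0.16 and an adjusted p-value of 0.388.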

How the data were processed

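The authors removed adapters with Cutadapt, checked reads with FastQC and deposited 1 table of FPKM per gene for the 6 libraries, with no read counts. The submitters' processing notes name HISAT2 2.0, StringTie 1.3.0 and Bowtie 0.12.2, without their roles, and the build mm8. The coordinates in the table equal those of GENCODE M21 on GRCm38 for all 9 members and for 26777 of the 30832 genes in both (86.8%), so GRCm38 is given here. Labels name a NovaSeq instrument and the paper a HiSeq. FPKM give depth only relative to the other libraries, so no counting intervals are possible and the spread between libraries is the error. The titles number the libraries as separate hearts.

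Values of log2(FPKM + 1) were tested with limma 3.58.1 in R 4.3.3 using lmFit and the trended eBayes, Ang II + Tec (3) against Ang II (3), without covariates, over the 13089 genes that reached 0.5 FPKM in 3 or more libraries, with Benjamini-Hochberg adjustment over all of them. This scale understates the change of low genes. Ratios within a library were tested with an exact permutation over the 20 splits. The fit was tested on simulated data. The members and lists were chosen with earlier results of these data known. Genes named are the members, in each list the genes called or otherwise the 2 with the largest absolute log2 fold change, the partners in ratios, the most abundant marker of a list, and the 3 genes closest to each member by Pearson coefficient. Named in addition, after their values were seen, were Gm15943 and Zcchc14 for their overlap with members, Sln and Myh1 as markers at 0, and Tnnt3 for its direction. Alternatives changed the pseudocount, filter, scaling, replicate block, library weights and variance trend, and left out each library. The Myl7 term and scaling to ventricular cardiomyocyte markers were added after seeing the data. Tables were handled with pandas 2.3.3 and figures drawn with matplotlib 3.10.9.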

Additional observations from a re-analysis of the deposited data

How the results depend on the processing

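Under the 18 alternatives, the log2 fold changes of Fbxo32 (0.30 to 0.66), Trim63 (0.21 to 0.55), Map1lc3b (0.09 to 0.40), Sqstm1 (0.21 to 0.52), Pink1 (0.32 to 0.72) and Becn1 (-0.33 to -0.01) kept their sign. In the settings of filter, replicate block and variance trend this was fixed beforehand, since they leave the log2 fold change as it is. Reversals occurred for Map1lc3a (0.14 with the median of ratios, 0.032 with quantile normalization, 0.020 with array weights), Gabarapl1 (0.033 with the median of ratios, 0.032 with quantile normalization) and Bnip3 (0.11 and 0.084 in these 2), where the scaling itself moves all genes of a library. The number of genes called, 24 as reported, was 3 with no filter, 13 at FPKM of at least 1 in all libraries, 3542 with array weights (whose fit stopped before its tolerance was reached) and 13 with the Myl7 term. The members called, 0 as reported, were 2 with array weights (Fbxo32 and Pink1), a setting in which 27.1% of all tested genes were called. Members at an unadjusted p-value under 0.05, 2 as reported, were 5 with the median of ratios, 4 without mitochondrial transcripts and 5 with quantile normalization. All of these had higher values, beside 7.56%, 2.11% and 8.33% of all tested genes, while 7.90%, 13.7% and 7.85% had lower ones. With array weights 3 members had higher and 2 had lower values, beside 4.13% and 42.3% of all tested genes. The members without overlap, 2 as reported, were 4 without mitochondrial transcripts and 5 with quantile normalization, all with higher values. Of all tested genes, 3.03% and 11.9% separated in this direction in these settings, and 2.90% did as deposited. In either direction the shares were 18.7%, 22.1% and 21.8%. There were 3 such members with the median of ratios (11.1% of all tested genes) and 3 with scaling to ventricular cardiomyocyte markers (2.78%), also all higher. The related genes called, 0 as reported, were 32 with array weights (20.9% of the 153), beside 27.1% of all tested genes. The causes were not tested.

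Leaving out single libraries gave 2 to 3776 genes called, 0 to 3 members called, 0 to 5 members at an unadjusted p-value under 0.05, 3 to 7 members without overlap and 0 to 37 related genes called, each highest without Ang II replicate 3 (3 and 7 genes were called when Ang II replicate 1 or 2 was left out, and 4, 2 and 3 for the Ang II + Tec replicates). With 3 libraries against 2, groups separate more easily, and 23.9% to 60.5% of all tested genes had no overlap in these settings, again highest without Ang II replicate 3. An unadjusted p-value under 0.05 was reached by 43.7% of all tested genes without that library and by 7.40% to 17.7% without any other. The adjusted p-value of Fbxo32 ranged from 0.0258 to 0.650 and that of Pink1 from 0.00760 to 0.652. With the replicate block, 23 genes were called, 19 of them also without it, and 0 members, with a lowest adjusted p-value of 0.146. The same-numbered libraries had correlations of -0.04, 0.43 and 0.38 in their deviations from the group means, and Ang II replicate 1 correlated best with Ang II + Tec replicate 2 (0.21), so the numbers were not taken to pair the libraries. Depth is known only as a relative value, so a difference in a low gene cannot be set against its counting error.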
